A study of Mus musculus with 8 samples.

Results

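Mature dentate granule neuron markers are transcripts that mark the principal cells of the dentate gyrus once they have matured. The 32 genes were taken by name, and the probe whose platform annotation gave that symbol was read, the brightest one over all arrays where a gene had several. A probe was found for 31 of the 32 genes, all but Tnfaip8l3, and 30 were bright enough to be tested among the 21150 probes tested in all. The samples were total RNA of the dorsal dentate gyrus of C57BL/6J male mice aged 8 to 12 weeks, hybridised in 1 colour to 8 arrays. The WT group had 4 arrays, and the mice of the Cav3.1 KO group (4 arrays) lacked Cav3.1, a T-type calcium channel encoded by Cacna1g. The groups differed in the labels only by genotype. The labels do not state how the knockout was made, whether it was limited to a cell type, or that each array came from a separate mouse, so the p-values rest on the spread among the arrays, part or all of which may be technical.

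Granule neurons receive the input of the entorhinal cortex and send mossy fibres to the CA3 field. The homeobox factor Prox1 is known to establish and keep their identity, the calcium buffer calbindin appears as they mature, and other markers act in adhesion, small GTPase signalling or as enzymes whose role in these cells is little known. Many of the markers are not exclusive to granule neurons. Zbtb20, Bcl11b and Calb1 are also expressed in CA1 pyramidal cells, and Ntng1 is a classical thalamic transcript. In dissected tissue, fewer cells of a type and less RNA per cell cannot be told apart.

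The upstream DNA of 3 members is shown because these were among those whose groups did not overlap and had a single annotated start outside other transcripts of the same gene. Each is the 250 bases before the start in RefSeq's GRCm38.p6 annotation, 5′ to 3′ on the gene's strand, with capitals marking E-boxes (CANNTG, a motif bound by neurogenic helix-loop-helix factors).
Rasl10a, chr11:5057878-5058127, plus strand: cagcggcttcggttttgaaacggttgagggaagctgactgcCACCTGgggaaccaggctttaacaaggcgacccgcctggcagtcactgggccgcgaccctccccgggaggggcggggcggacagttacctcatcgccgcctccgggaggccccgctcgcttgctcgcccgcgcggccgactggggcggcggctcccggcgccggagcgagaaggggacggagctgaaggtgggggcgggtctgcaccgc
Plk5, chr10:80356209-80356458, plus strand: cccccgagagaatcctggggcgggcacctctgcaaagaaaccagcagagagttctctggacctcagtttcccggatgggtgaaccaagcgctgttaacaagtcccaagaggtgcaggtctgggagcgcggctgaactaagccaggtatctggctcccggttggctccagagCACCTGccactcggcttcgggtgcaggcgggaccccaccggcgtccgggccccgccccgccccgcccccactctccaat
Lct, chr1:128328319-128328568, minus strand: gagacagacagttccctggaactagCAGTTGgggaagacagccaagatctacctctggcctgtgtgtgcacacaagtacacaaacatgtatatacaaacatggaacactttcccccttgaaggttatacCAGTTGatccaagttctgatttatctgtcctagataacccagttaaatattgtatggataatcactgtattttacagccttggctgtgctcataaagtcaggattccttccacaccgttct
The windows of Rasl10a and Plk5 were rich in G and C, at 72.4% and 65.6%, and that of Lct was not, at 42.8%. The letters CANNTG occurred in 66.2% of all 32851 windows of this length and in 25 of 42 windows of the members. The palindrome TGACGTCA, the full cAMP response element, occurred in 1.55% of all windows and in 0 of the 42, read on both strands. The letters GGGCGG, read on both strands, occurred in 32.7% of all windows and in 18 of the 42. These matches describe the letters and no binding.

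Intensities were background-corrected with an offset and quantile normalised, and values below are normalised log2 intensities unless stated. A difference is Cav3.1 KO minus WT. A probe counted as dim when its mean spot intensity over the 8 arrays was under 86.6, that is 1.5 times the mean blank spot of 57.7, a limit set after the values were seen. The offset compresses the differences and SEs of dim probes. For these, a value after subtraction of each array's mean blank spot is therefore given too, as an intensity or a log2 difference. Such intensities were not normalised, while the log2 differences were taken after quantile normalisation of the subtracted values. Of the 31 probes, 30 were detected on all 8 arrays, and 11 were dim, namely those of Prox1, Rfx3, Glis3, Plk5, Dgkh, Dock10, Lrrtm4, Ntng1, Npnt, Gsg1l and Fam163b. Glis3 was above the blank limit on only 1 array and was not tested.

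The arrays differed in a technical respect that overlapped in part with genotype. Per the file headers, the line relating the scans at gains 1 and 3 had slopes of 0.244 to 0.247 on WT replicates 1, 2 and 4 and Cav3.1 KO replicate 1 (gain set A), and of 0.235 to 0.236 on WT replicate 3 and Cav3.1 KO replicates 2, 3 and 4 (gain set B). Mean blank spots were 53.0 to 56.2 in set A and 59.7 to 63.4 in set B. The share of probes detected ran from 85.4% to 93.0%. The Cacna1g probe did not separate the groups, with a difference of -0.08 (SE 0.0508, limma adjusted p 0.816), and its place relative to the deleted part is unknown here, so it does not check the genotype.

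One marker passed the test and most differences were small on the normalised scale. Of the 30 members tested, Rasl10a fell, 0 rose and 29 did not pass, by limma with Benjamini-Hochberg adjustment over all 21150 probes at a threshold of 0.05. Of all probes, 0.288% were called (0.0898% lower, 0.199% higher). By unadjusted p under 0.05, 8 of the 30 members differed, 6 lower and 2 higher, where 8.1% of all probes did (4.34% lower, 3.76% higher). The groups did not overlap for 7 members, 6 of them lower, against 4.95% of all probes (2.53% lower). Below zero were 19 of the 30 differences, against 50.7% of all probes, and their median was -0.04, against -0.000775 for all probes. The sizes ran from -0.68 to 0.34, with 18 of the 30 under 0.1 in size. The offset shrinks the differences of the 10 dim members among them most, and after blank subtraction the median over the 30 was -0.167. For 25 of the 30, the 95% interval excluded a difference of 1.5-fold either way on the compressed normalised scale. After blank subtraction this held for 17 of the 30.

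**Figure D1:**
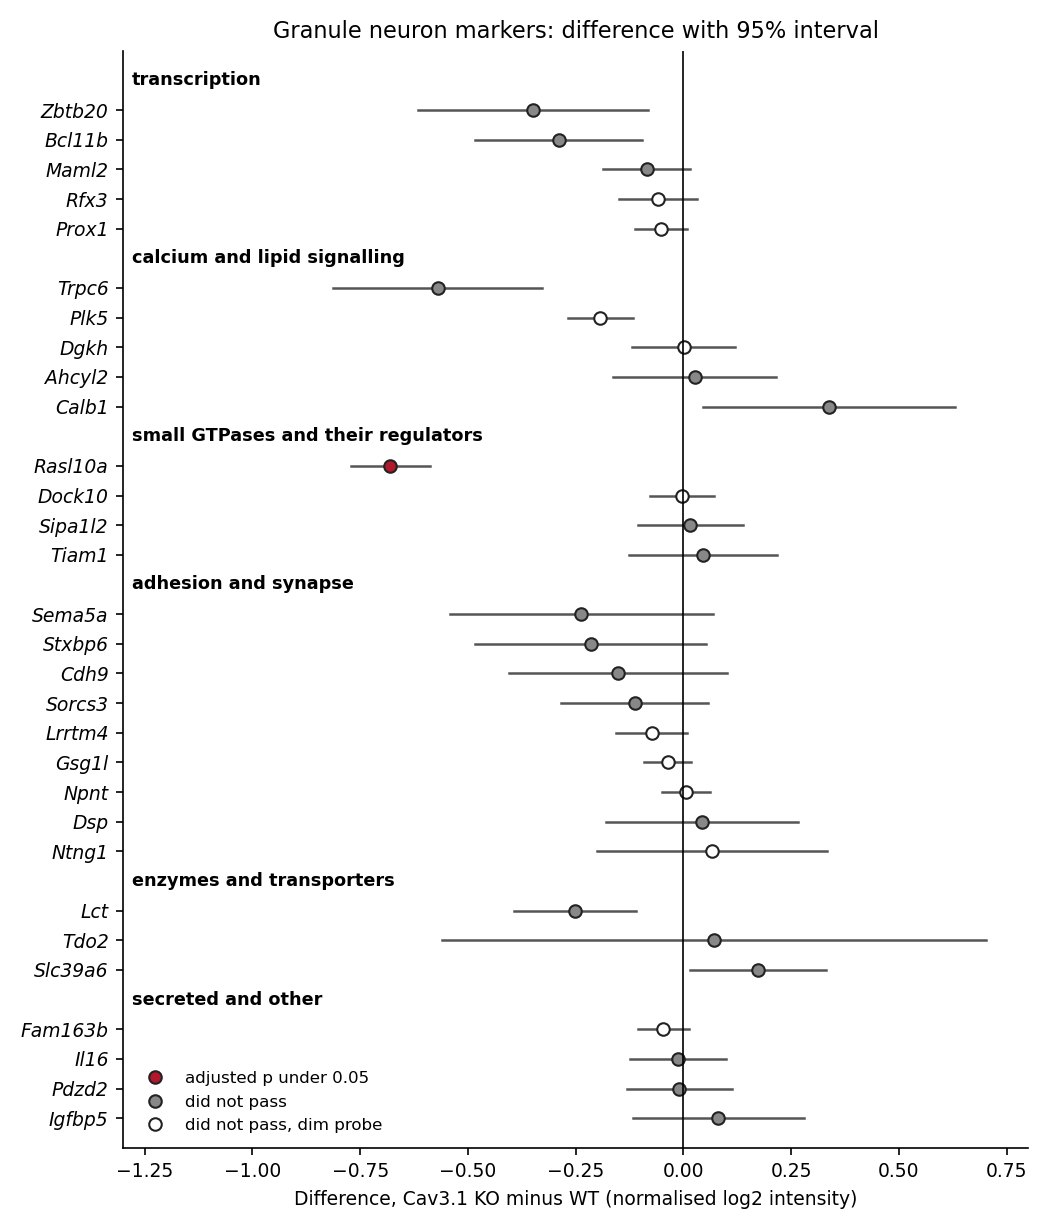
Difference between Cav3.1 KO and WT for each of the 30 members tested, on the normalised log2 scale (horizontal axis), grouped by role, with 95% intervals from limma. Rasl10a, at -0.68, is the one filled red point (adjusted p under 0.05), open points are dim probes, and Zbtb20, Bcl11b, Trpc6, Plk5, Lct, Calb1 and Slc39a6 have intervals that exclude 0 without passing adjustment.

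Among the small GTPases and their regulators, Rasl10a encodes a Ras-like GTPase. It measured 9.24, 9.23, 9.18 and 9.22 on WT replicates 1 to 4 and 8.45, 8.51, 8.56 and 8.63 on Cav3.1 KO replicates 1 to 4. All Cav3.1 KO arrays lay below all WT arrays, and the WT values were close together. The mean fell from 9.22 ± 0.0236 (SD, n = 4) to 8.54 ± 0.0759 (SD, n = 4), a difference of -0.68 (SE 0.0398, 1.6-fold, limma adjusted p 0.000605). After subtraction of the blank spots, the WT intensity was 488 to 598 and the Cav3.1 KO intensity 241 to 350. With quantile normalisation of the subtracted values, the log2 difference was -0.768. Rasl10a was called under each alternative run. The limma adjusted p-values were 0.000717 to 0.00742 when any 1 array was left out and 0.0063 with the gain set as a block. RefSeq places Rasl10a inside the span of another gene, Gas2l1, a cytoskeletal linker. The probe of Gas2l1 was faint in both groups (5.903 and 5.923), differing by 0.02 with SE 0.0274 (limma adjusted p 0.974).

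The other members of this role differed little on the normalised scale. Tiam1, an activator of Rac, differed by 0.04 (SE 0.0749), Sipa1l2, a Rap GTPase-activating protein, by 0.02 (SE 0.053), and Dock10, an activator of Rac and Cdc42 with a dim probe, by less than 0.01 in size (SE 0.0321). None of the 3 passed (adjusted p 0.98 to 0.998).

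The members grouped under calcium and lipid signalling, where Plk5 was also placed, went in both directions. Trpc6, a cation channel opened by diacylglycerol, measured 7.46, 7.29, 7.64 and 7.69 on WT replicates 1 to 4 and 6.82, 7.18, 6.94 and 6.87 on Cav3.1 KO replicates 1 to 4. The groups did not overlap, though WT replicate 2 and Cav3.1 KO replicate 2 were close. The difference was -0.57 (SE 0.106, 1.48-fold), the second in size after Rasl10a, and did not pass (limma adjusted p 0.104). After blank subtraction it was -0.887 (adjusted p 0.147), above that of Rasl10a in size.

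Plk5, a polo-like kinase family member expressed in neurons, had a dim probe at a mean spot intensity of 72.6. Above the blank spots, it measured 19.2, 26.4, 17.9 and 15.5 on WT replicates 1 to 4 and 8.98, 10.6, 11.2 and 8.86 on Cav3.1 KO replicates 1 to 4, so the groups did not overlap. On the normalised scale the difference was -0.19 (SE 0.0328) and did not pass (limma adjusted p 0.082). With blank subtraction as the background correction it was -0.908 (SE 0.121) and passed (adjusted p 0.0297), the only member whose call changed with the scale. In the value table the authors deposited, it was -0.95 (adjusted p 0.0688). With the gain set as a block the normalised difference was -0.17 (adjusted p 0.208).

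Calb1, the calcium buffer calbindin, was the largest positive difference. It measured 9.59, 9.75, 9.36 and 9.58 in WT and 9.78, 9.78, 9.79 and 10.28 in Cav3.1 KO, in replicate order. The highest WT array and the lowest Cav3.1 KO array were only just apart, and Cav3.1 KO replicate 4 stood above the rest. The difference of 0.34 (SE 0.127) did not pass (limma adjusted p 0.523). Leaving out Cav3.1 KO replicate 4 reduced it to 0.215 (adjusted p 0.512), and leaving out WT replicate 3 to 0.269 (adjusted p 0.846). Ahcyl2, a relative of the protein that binds the inositol trisphosphate receptor, differed by 0.03 (SE 0.0825), and Dgkh, a diacylglycerol kinase with a dim probe, by less than 0.01 in size (SE 0.0519).

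All 5 tested transcription members were lower, none past adjustment. Zbtb20, a zinc finger repressor needed for hippocampal identity, measured 9.90, 10.07, 9.99 and 10.37 in WT and 9.53, 9.72, 9.72 and 9.96 in Cav3.1 KO, in replicate order. The groups overlapped, since Cav3.1 KO replicate 4 lay above WT replicate 1. Its brightest probe differed by -0.35 (SE 0.116, limma adjusted p 0.417), and its other probes by -0.46 (SE 0.14) and -0.20 (SE 0.139), so all 3 probes pointed the same way and none passed. Bcl11b, a zinc finger factor also known as CTIP2, measured 9.51, 9.55, 9.54 and 9.79 in WT and 9.27, 9.27, 9.18 and 9.51 in Cav3.1 KO. The lowest WT and the highest Cav3.1 KO array were nearly equal, and the difference was -0.29 (SE 0.0843, adjusted p 0.334). Both genes were highest on replicate 4 within each group, and so was the mean of a list of CA1 pyramidal neuron markers, at 7.65 on WT replicate 4 and 7.59 on Cav3.1 KO replicate 4 against 7.13 to 7.57 on the other 6 arrays. The part of CA1 tissue in these values was not tested.

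Prox1, the defining factor of granule neurons, had a dim probe, so its level is known poorly. It measured 6.03, 6.02, 6.01 and 6.08 in WT and 5.98, 6.02, 5.98 and 5.95 in Cav3.1 KO. The groups overlapped and the difference was -0.05 (SE 0.0264, limma adjusted p 0.708). Above the blank spots the WT intensity was 12.2 to 14.2 and the Cav3.1 KO intensity 8.79 to 12.6. The log2 difference after blank subtraction and quantile normalisation was -0.295 and did not pass (limma adjusted p 0.614). Rfx3, a winged-helix factor of ciliated cells and neurons, differed by -0.06 (SE 0.0395) with a dim probe. Maml2, a coactivator of Notch signalling, differed by -0.09 (SE 0.0441), while its second probe differed by 0.04 (SE 0.0401). Of Glis3, a zinc finger factor, the intensity was within 2.16 of the mean blank spot on every array.

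**Figure D2:**
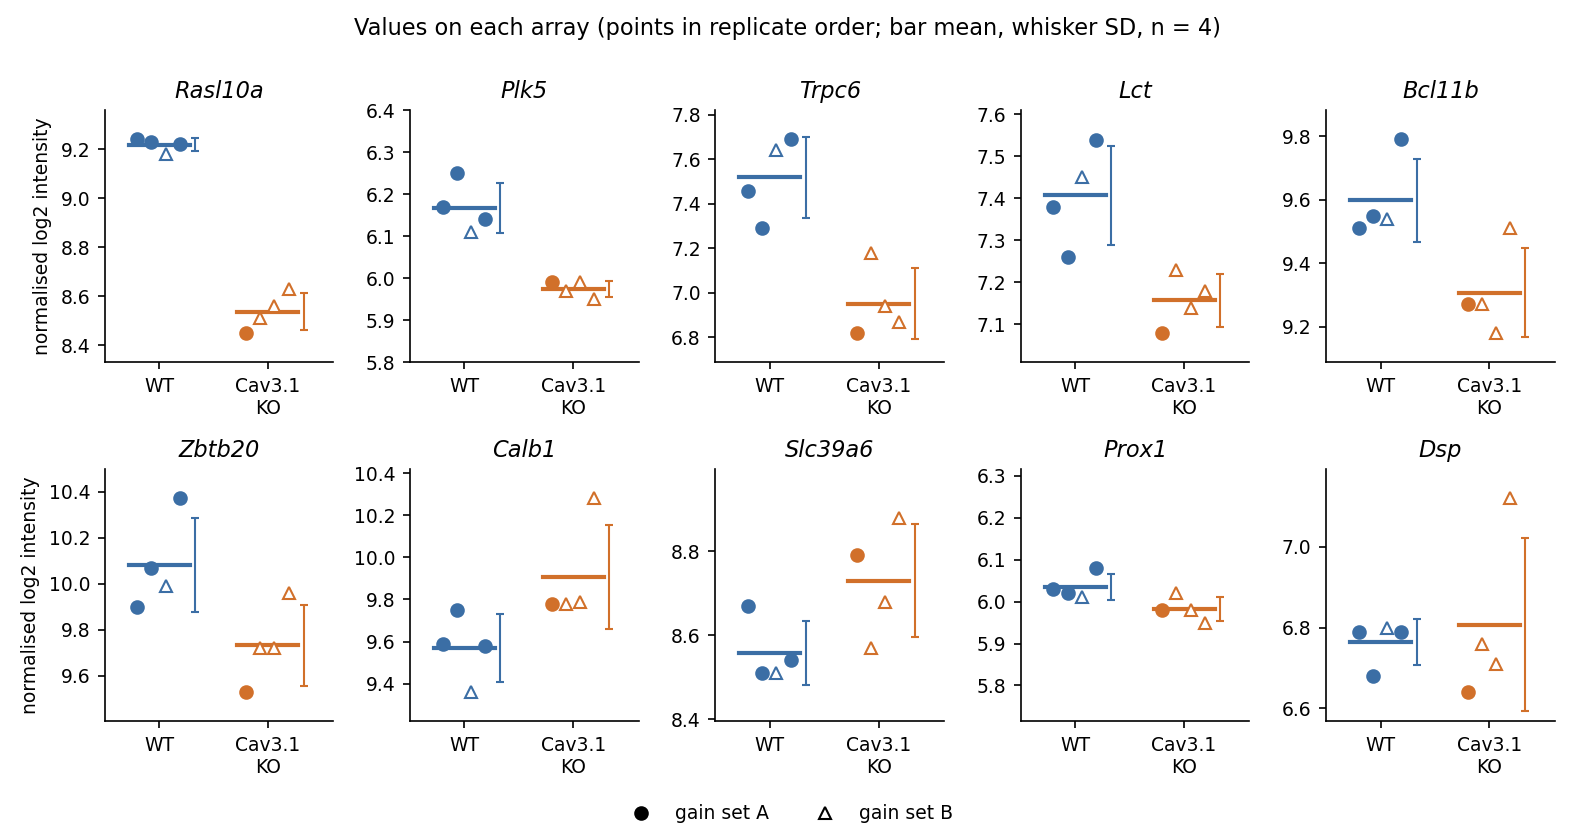
Normalised log2 intensity (vertical axis, a separate range for each gene) of 10 members on each array, in replicate order within WT (blue) and Cav3.1 KO (orange), with the mean as a bar and the SD as a whisker (n = 4). Filled circles are gain set A and open triangles gain set B. Rasl10a, Plk5, Trpc6 and Lct do not overlap between the groups, and Prox1 and Dsp do.

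Among the enzymes and transporters, Lct, which encodes lactase and is known as a granule neuron transcript, measured 7.38, 7.26, 7.45 and 7.54 in WT and 7.08, 7.23, 7.14 and 7.18 in Cav3.1 KO. The groups did not overlap by a small margin, and the difference of -0.25 (SE 0.0616) did not pass (limma adjusted p 0.231). Slc39a6, the zinc transporter ZIP6, measured 8.67, 8.51, 8.51 and 8.54 in WT and 8.79, 8.57, 8.68 and 8.88 in Cav3.1 KO. Its groups overlapped, at a difference of 0.17 (SE 0.0687, adjusted p 0.562). Tdo2, the tryptophan-degrading dioxygenase, was the most variable member, at 6.21, 7.12, 6.11 and 6.23 in WT and 6.93, 6.31, 5.97 and 6.75 in Cav3.1 KO. High and low arrays occurred in both groups. Its difference of 0.07 (SE 0.274, 95% interval -0.559 to 0.702) did not exclude a 1.5-fold higher level in Cav3.1 KO. After blank subtraction the interval was -1.42 to 1.71, which excluded 1.5-fold in neither direction.

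Of the 9 adhesion and synapse members, 0 passed and 0 reached an unadjusted p under 0.05, and all 9 intervals excluded 1.5-fold on the normalised scale. After blank subtraction 4 of the 9 did, and those of Cdh9, Lrrtm4, Ntng1, Sema5a and Stxbp6 did not. Dsp, the desmosomal protein desmoplakin and a sharp granule neuron marker, measured 6.79, 6.68, 6.80 and 6.79 in WT and 6.64, 6.76, 6.71 and 7.12 in Cav3.1 KO. Cav3.1 KO replicate 4 stood above all other arrays and the remaining 3 lay among or below WT, for a difference of 0.04 (SE 0.0969). Its second probe differed by -0.06 (SE 0.0483). The larger differences were those of Sema5a, a semaphorin, at -0.24 (SE 0.132), Stxbp6, a SNARE-binding protein, at -0.21 (SE 0.116), Cdh9, a cadherin of the mossy fibre synapse, at -0.15 (SE 0.11), and Sorcs3, a sortilin-like receptor, at -0.11 (SE 0.0745). Their sizes varied with single arrays, while each stayed below zero with any 1 array left out. Sema5a then ran from -0.316 to -0.121, Stxbp6 from -0.308 to -0.126, Cdh9 from -0.217 to -0.0726 and Sorcs3 from -0.165 to -0.0615. Sema5a and Cdh9 were smallest in size without Cav3.1 KO replicate 1. Stxbp6 was smallest without WT replicate 1, and Sorcs3 without WT replicate 2. Sema5a was lower in gain set A (-0.66) and not in gain set B (0.10). With the gain set as a block, the difference of Cdh9 was -0.29 (SE 0.0843, limma adjusted p 0.33), larger and still not called. The dim probes of Lrrtm4, a synaptic adhesion protein, of Gsg1l, an auxiliary subunit of AMPA receptors, and of Npnt, the matrix protein nephronectin, differed by -0.07, -0.04 and 0.01 (SE 0.036, 0.024 and 0.0246).

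Ntng1, the adhesion protein netrin-G1, was dim and had high and low arrays in both groups. It measured 6.43, 6.36, 6.35 and 6.22 on WT replicate 2, Cav3.1 KO replicates 2 and 3 and WT replicate 1, and 5.98 to 6.10 on the other 4 arrays. On the same first 4 arrays the mean of 11 thalamus and habenula markers was 7.21, 7.44, 7.47 and 7.11, and on the other 4 it was 6.82 to 6.98. Other lists divided these arrays in the same way. The ependyma mean was 6.50 to 6.70 against 6.04 to 6.31, and the choroid plexus mean 8.07 to 8.64 against 6.35 to 7.86. For the immature granule neuron list it was 7.03 to 7.37 against 6.92 to 6.99. The difference of Ntng1 between the groups was 0.07 (SE 0.116, limma adjusted p 0.982), and the part of thalamic or other tissue in it was not tested.

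Of the remaining members, Igfbp5, which binds insulin-like growth factors, differed by 0.08 (SE 0.0864), Fam163b, a neuronal membrane protein with a dim probe, by -0.05 (SE 0.0258), and the PDZ proteins Il16 and Pdzd2 by about -0.01 each (SE 0.0485 and 0.0528). Fam163b just avoided overlap, since its lowest WT and highest Cav3.1 KO arrays both rounded to 6.08. A second probe of Pdzd2 differed by 0.03 (SE 0.0247). These 4 genes did not pass (limma adjusted p 0.749 to 0.996).

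Differences of dim probes were larger after blank subtraction. The median over the 30 members was then -0.167, with 19 of the 30 below zero as before, against -0.00342 over all probes. Among dim probes, Lrrtm4 went from -0.07 to -0.445, Rfx3 from -0.06 to -0.372 and Gsg1l from -0.04 to -0.255, none past the threshold (limma adjusted p 0.628, 0.812 and 0.696). The probes of Lrrtm4, Rfx3 and Gsg1l stood only 6.55 to 17.4 intensity units above the blank spots on any array. Fam163b went from -0.05 to -0.208 (SE 0.0963) and Ntng1 from 0.07 to 0.327 (SE 0.417). After blank subtraction Dock10, Dgkh and Npnt differed by -0.0256, 0.0288 and 0.0648, with wider SEs of 0.241, 0.199 and 0.147. None of these passed either.

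**Figure D3:**
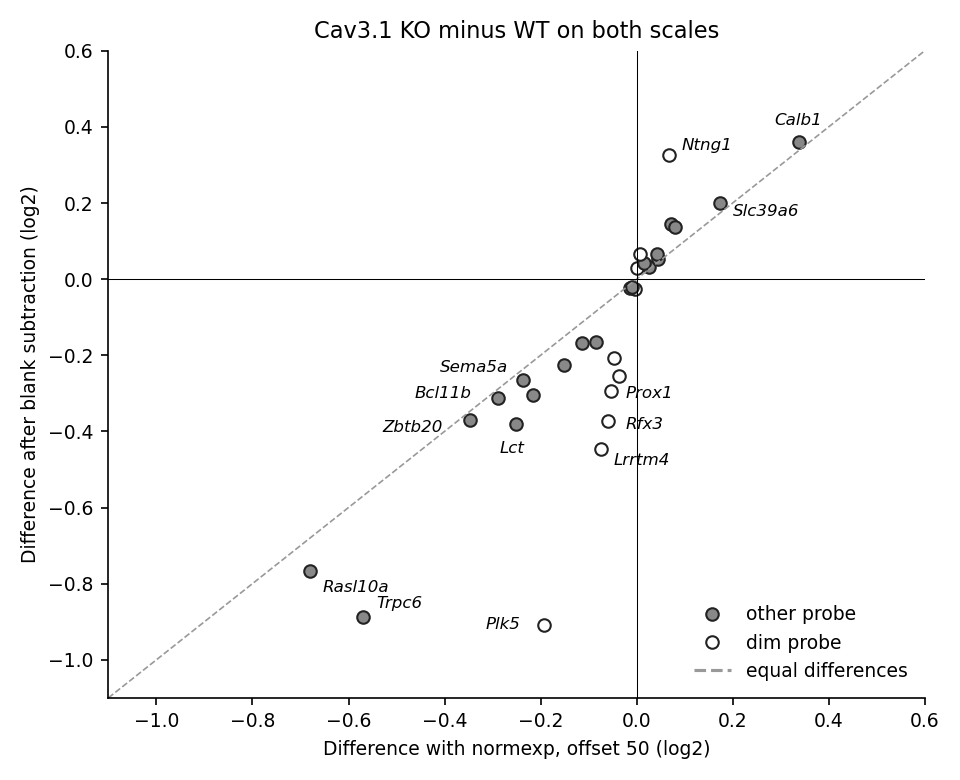
Difference between Cav3.1 KO and WT for the 30 members with the offset correction (horizontal axis) and after blank subtraction (vertical axis), both in log2, with equal differences on the dashed line. Dim probes (open) lie farther from 0 on the vertical axis, as Plk5 at -0.19 and -0.908, while the bright Zbtb20 and Calb1 lie near the line.

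Within the gain sets, the difference had the same sign in both for 22 of the 30 members (73.3%), against 54.3% of all probes. The signs were opposite for Rfx3, Ahcyl2, Sipa1l2, Dsp, Ntng1, Sema5a, Il16 and Pdzd2. The 8 members with an unadjusted p under 0.05 were chosen on the same arrays, so their values by set are a description. Rasl10a differed by -0.78 within set A (3 WT and 1 Cav3.1 KO array) and by -0.62 within set B (1 WT and 3 Cav3.1 KO arrays). Trpc6 differed by -0.66 and -0.65, and Lct by -0.32 and -0.27. The least even were Zbtb20, at -0.58 in set A and -0.19 in set B, and Calb1, at 0.14 and 0.59. Each of these comparisons has a single array on 1 side. Array numbers gave a second division, in which WT replicate 3 and Cav3.1 KO replicate 4 stood apart. Between these 2 arrays, Rasl10a differed by -0.56, Trpc6 by -0.77 and Calb1 by 0.91, but Zbtb20 by only -0.03 and Bcl11b by -0.03, against -0.45 and -0.38 within the other 6 arrays.

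**Figure D4:**
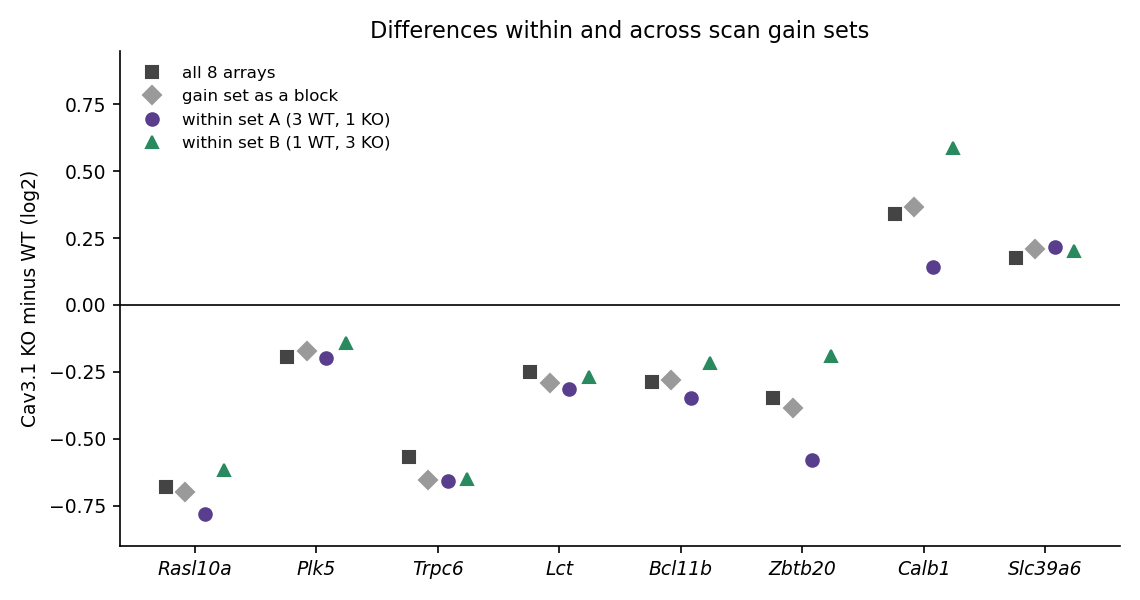
Difference between Cav3.1 KO and WT (vertical axis, normalised log2) for 8 members, over all 8 arrays, with the gain set as a block, and within each gain set. Rasl10a, Trpc6 and Lct have similar differences in both sets, and Zbtb20 and Calb1 have unequal ones.

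The members are set here against the range of the 4 WT arrays. Of the 30 members, 18 lay below every WT array on Cav3.1 KO replicate 1, 12 each on replicates 2 and 3, and 10 on replicate 4, while 3, 3, 2 and 5 lay above every WT array. Of all probes tested, 24.7%, 20.8%, 22.2% and 22.7% lay below every WT array on the same 4 arrays, and 20.1% to 24.9% above. The mean over the members ran from 7.18 to 7.25 on WT arrays and was 7.10, 7.15, 7.12 and 7.20 on Cav3.1 KO replicates 1 to 4, so the groups overlapped.

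A second list of 12 granule neuron genes outside the members was read for comparison, chosen with the earlier result for C1ql2 known. Of 11 with a probe, 1 fell, 0 rose and 10 did not pass, with 10 of the 11 differences below zero and a median of -0.14. C1ql2, a C1q-family synaptic organiser released by granule neurons, measured 8.67, 8.82, 8.78 and 8.62 in WT and 8.08, 8.18, 8.17 and 8.19 in Cav3.1 KO. The groups lay apart and the mean fell by 0.57 (SE 0.0509, limma adjusted p 0.0065). With the gain set as a block it was -0.61 (adjusted p 0.0179). Ppp1r1a, a protein phosphatase inhibitor, differed by -0.43 (SE 0.0871, adjusted p 0.143) and C1ql3, a relative of C1ql2, by -0.20 (SE 0.0673, adjusted p 0.429). The list mean, with C1ql2 included, was 8.19 to 8.32 on WT arrays and 7.97 to 8.12 on Cav3.1 KO arrays.

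Markers of immature granule neurons were divided in direction. Of 11 tested, 0 passed, 5 were lower and 6 higher, with a median of 0.01, and Dcx, the microtubule protein doublecortin, differed by less than 0.01 in size (SE 0.0479). On Cav3.1 KO replicates 2 and 3, where thalamus and habenula markers were high, the list mean was raised by Tac2, a tachykinin also made in the habenula, and Calb2, calretinin. Tac2 was 8.82 and 8.63 there against 6.17 to 6.48 on the other arrays, and Calb2 8.88 and 8.78 against 6.96 to 8.15. The mean of the other 9 genes was 6.97 to 7.04 over all 8 arrays. CA3 markers were lower for 7 of 9, with 1 call, Bok of the BCL-2 family (-0.65, SE 0.0593, limma adjusted p 0.0065). The mean of the CA3 list, with Bok included, was 7.58 to 7.62 on WT arrays and 7.35 to 7.48 on Cav3.1 KO arrays. CA1 markers were lower for 6 of 8 with 0 calls, and interneuron markers higher for 9 of 12 with 0 calls. Choroid plexus markers spread most, from 6.35 to 8.64, with 0 calls among 8. The remaining lists gave 1 call each for astrocytes (the connexin Gjb6, 0.38) and endothelial cells (the claudin Cldn5, -0.79). They gave 0 calls for mossy cells, oligodendrocytes, microglia, ependyma, neocortex, and thalamus and habenula. With the gain set as a block, Gjb6 was not called (limma adjusted p 0.11). Microglia markers were lower for 9 of 9 and oligodendrocyte markers for 8 of 9. Thalamus and habenula markers were higher for 9 of 11, neocortex markers for 7 of 9 and mossy cell markers for 6 of 9. When the 2 arrays highest in thalamic markers, Cav3.1 KO replicates 2 and 3, were dropped, with WT replicates 1 and 2 (7.11 and 7.21) kept, the call among the members was again Rasl10a, and 20 of the 30 differences were below zero. How much tissue content contributed to the members' differences was not tested.

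**Figure D5:**
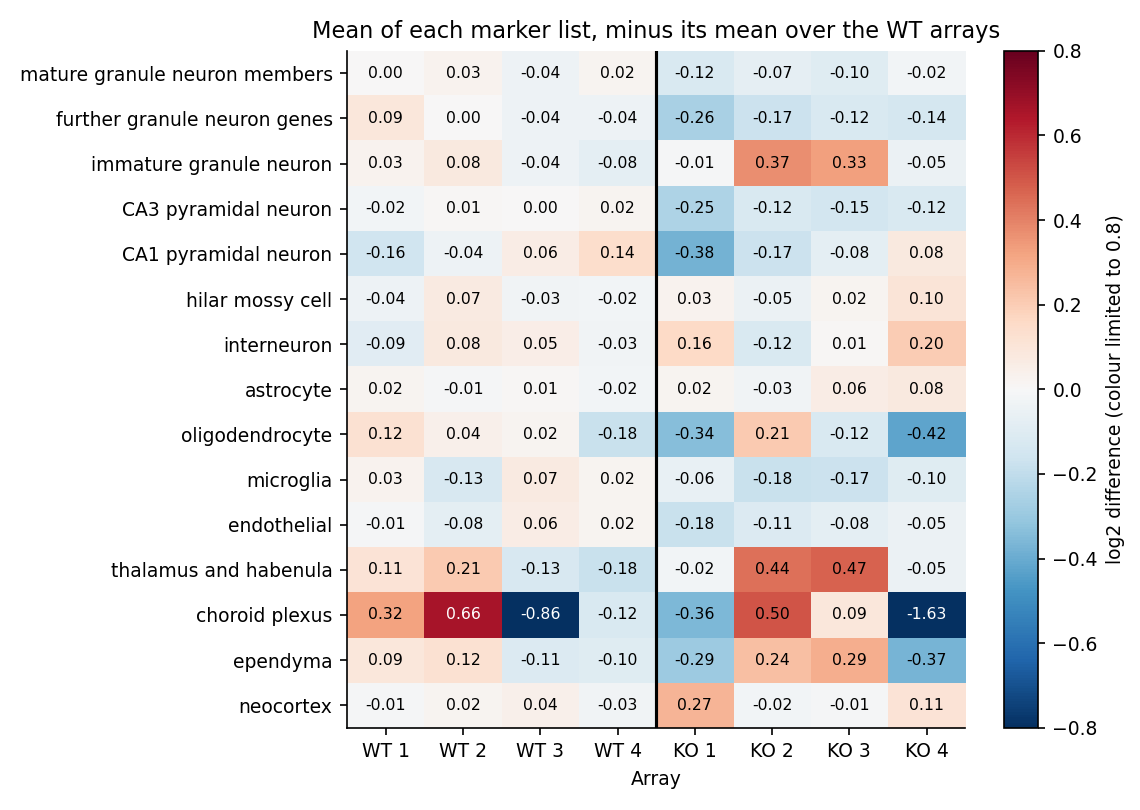
Mean of each marker list on each array minus its mean over the 4 WT arrays (colour and printed value, log2, colour limited to 0.8), for the members, the second granule neuron list and lists of other cell types and regions. The members lie between -0.12 and -0.02 on the Cav3.1 KO arrays, while thalamus and habenula markers are 0.44 and 0.47 on Cav3.1 KO replicates 2 and 3, and choroid plexus markers run from -1.63 to 0.66.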

How the data were processed

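The scanner files hold a median spot intensity per spot, which per the file headers came from scans at 3 gains and was not normalised. The sources used here do not say how gains were merged. The column headed as background tracked the spots themselves (correlation of logarithms 0.994 to 0.996), so it was left unused. The value table the authors deposited holds blank-subtracted intensities scaled to a median of 25. Normexp with an offset of 50 was applied to the spots, followed by log2 and quantile normalisation. Probes above the 95th percentile of an array's blank spots on at least 4 arrays were tested, leaving out 2239 probes below that limit and 84 marked not good. The fit used limma (version 3.58.1, R 4.3.3) on all 8 arrays with Benjamini-Hochberg adjustment over 21150 probes, and the procedure was tested on simulated data. The number of arrays limits the precision. Alternatives covered background, scaling, filter, blocks and arrays left out. Members, lists and tests were chosen with earlier results of these data known. All members are named, and those with an unadjusted p under 0.05, with Prox1, Calb1 and Dsp, by array. Other genes were named if called or for a small p. Dcx, Ppp1r1a, C1ql3, Gas2l1, Tac2, Calb2, Tdo2 and Ntng1 were singled out after their values were seen.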

Additional observations from a re-analysis of the deposited data

Results flagged for a closer look

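Of 60 sets of 4 arrays (30 members in 2 groups), 6 held an array far from the other 3 by Dixon's test, where chance gives about 1 in 20. Calb1 was 10.28 on Cav3.1 KO replicate 4, against 9.78 to 9.79 on the others. Tdo2 was 7.12 on WT replicate 2, against 6.11 to 6.23. Bcl11b was 9.79 on WT replicate 4, against 9.51 to 9.55. Dsp was 6.68 on WT replicate 2, below 6.79 to 6.80. Lrrtm4 was 6.01 on Cav3.1 KO replicate 4, above 5.92 to 5.93, and Npnt was 5.85 on WT replicate 2, below 5.90 to 5.91, both with dim probes.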

How the results depend on the processing

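Rasl10a was the only member called in the main comparison and under each alternative but one, blank subtraction, which called 2 members, Rasl10a and Plk5. The number of probes called was 61. It was 36 with median scaling, 34 in the deposited value table, 7 within the first array series, 17 without Cav3.1 KO replicates 2 and 3, 23 with the gain set as a block (chosen after seeing the data) and 8 with the replicate block. With 1 array left out it ran from 16 without WT replicate 4 to 49 without WT replicate 2 or Cav3.1 KO replicate 1 (26 to 37 without any of the others), and the members called were 1 each time. The count of members lower, 19, ran from 17 to 22 with 1 array left out and was 23 in the deposited table, where 67.5% of all probes were lower and their median was -0.0656. Replicate numbers showed no pairing in the deviations of same-numbered arrays, which correlated between -0.115 and 0.0109. Rasl10a kept its call under the replicate block (limma adjusted p 0.0492). Under that block the SEs of Zbtb20 and Bcl11b fell to 0.0348 and 0.0327. Neither of these 2 genes passed there (limma adjusted p 0.0975 and 0.129). The sign of a difference changed for at most 5 of the 30 members under any alternative, and none of those was called. Dim probes limit what can be said of Prox1 and Glis3.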
